A study of Rattus norvegicus with 6 samples.

Results

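The genes described here are 10 ion channels and channel candidates that respond to protons or to membrane tension, measured in lumbar dorsal root ganglia of the rat, the clusters of sensory neurons that serve the leg. They were chosen by gene name as the acid-sensing ion channels Asic1, Asic2, Asic3 and Asic4, the Piezo channels Piezo1 and Piezo2, the TMEM63 channels Tmem63a, Tmem63b and Tmem63c, and Tmem150c, also called tentonin 3, and each of the 10 had 1 row among the 23800 features of the table. Sprague Dawley rats had received MRMT-1 breast carcinoma cells, a line of rat origin, in 10 µL of medium through a hole in the left tibia. The cells were living in the bone cancer pain group (BCP, 3 samples) and boiled in the sham group (sBCP, 3 samples), so that both groups share the drilled bone and the injected material. The L3 to L5 ganglia of the injected side were collected on day 17, and their polyadenylated RNA was sequenced. The labels do not give sex or age, do not say whether animals were pooled, and do not say that each sample is a separate animal, so the p-values reflect only how these samples vary, part of which may be technical.

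Acid-sensing channels are sodium channels of the degenerin family that assemble as trimers and open when the fluid outside the cell turns acidic. ASIC3 is enriched in sensory neurons of muscle and bone. Piezo channels open on stretch of the membrane: Piezo2 carries touch and limb position in sensory neurons, while Piezo1 serves vessels, blood cells and many other tissues. TMEM63 proteins are the animal relatives of the plant OSCA channels and respond to high membrane tension or to osmotic change. Tmem150c has been linked to slowly adapting stretch currents, and whether it forms a channel itself is disputed. The comparison of BCP with sBCP asks whether transcripts of these sensors differ when a living tumour, which can acidify and deform the bone, lies in the field of the ganglia.

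Of the 10 genes, 9 reached 1 FPKM (a level scaled to transcript length and to the size of the library) in at least 3 of the 6 libraries and entered the test, and none was called (0 of 9, with 0 also at an unadjusted p under 0.05). The test was limma on log2(FPKM + 1), with Benjamini-Hochberg adjustment over 13710 features. It called 25 of those features (0.182%) at an adjusted p under 0.05, and 271 (1.98%) had an unadjusted p under 0.05. BCP and sBCP values overlapped for each of the 10 genes, the untested Asic4 included. Groups that do not overlap were found for 5.4% of all tested features, so overlap in so few genes does not set them apart. The median difference of the 9 genes was 0.02 on the log2 scale (5 above 0 and 4 below), against -0.01 over all tested features (6239 above 0 and 7471 below). The median size of the difference regardless of sign was 0.08 for the 9 genes and 0.07 over all tested features, beside a median within-group SD of 0.15 for both. The 95% intervals of the 9 genes reached from -0.51 at the lowest bound to 0.61 at the highest, so that a difference of 1 on this scale lay outside each of them. A p-value that misses the threshold does not show that a gene was unchanged.

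**Figure D1:**
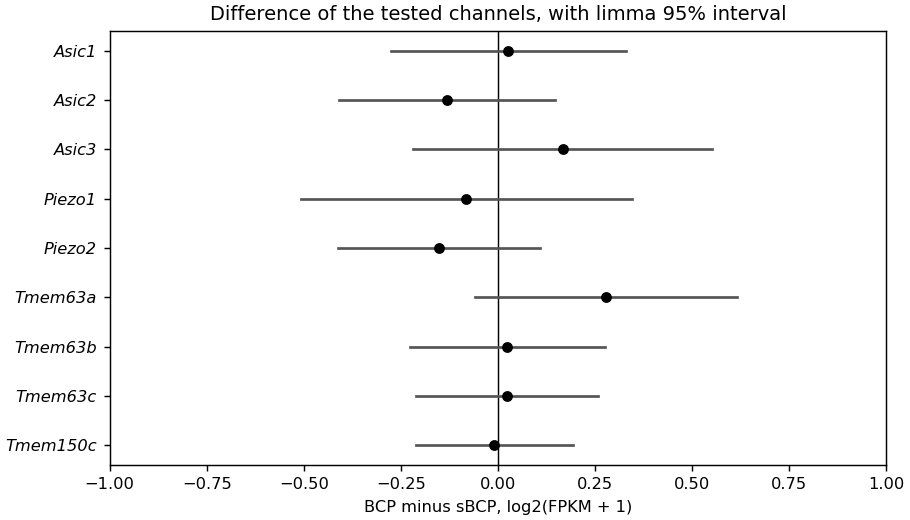
BCP minus sBCP difference of the 9 tested channels on the log2(FPKM + 1) scale (points) with the 95% interval of limma's moderated fit (lines), 3 libraries per group. Each interval includes 0, and the bounds run from -0.51 for Piezo1 to 0.61 for Tmem63a.

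The libraries were ganglion by their markers, and of the 9 marker lists that of muscle differed most between the groups. The neuronal genes Uchl1 and Rbfox3 were at 2350 to 3072 and at 54.5 to 74.8 FPKM over the 6 libraries, and 8 of 8 listed markers of touch and position neurons and 8 of 8 of pain-sensing neurons passed the filter on low values. The summed FPKM of 8 skeletal muscle markers was 13.6 to 22.4 in BCP and 537 to 954 in sBCP, and 8 of 8 were called lower. Over all tested features 23 of 13710 were called lower. The lists were chosen with earlier results of these data known, so this count is a description. The 6 fibroblast markers and the 6 markers of myelinating Schwann cells were each below 0 as well (median differences of -0.27 and -0.15, 0 called), and the fibroblast gene Pi16, named after its values were seen, had groups that did not overlap (limma unadjusted p = 0.0434, adjusted p = 1.00). The share of all tested features with such groups was 5.4%. Markers of pain-sensing neurons had 2 above 0 and 6 below (median difference of -0.11, 0 called). The part of these markers in the values of the channels was not tested. BCP replicate 2 stood apart in macrophage markers, with a summed FPKM over 7 genes of 126 against 23.3 to 54.5 in the other 5 libraries. The absolute depth is unknown from FPKM, and low values placed the other libraries at 1.11 to 1.31 times the depth of BCP replicate 1.

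The levels of the 10 genes fell into a high and a low tier. Asic3 was the highest, with a mean of 110.5 FPKM over the 6 libraries, above 96.9% of all features in the table. Tmem63b (80.0 FPKM), Asic1 (63.3), Piezo2 (52.3), Tmem63c (47.1) and Tmem150c (45.3) followed. A gap of 8.20 times then separated Tmem150c from Asic2 (5.52 FPKM), which was followed by Tmem63a (2.83) and Piezo1 (2.63). Asic4 had 0.460 FPKM, under the filter. Within each of the 6 libraries Asic3 lay above Tmem63b and Tmem63b above Asic1, although the ranges over libraries overlapped. The order of Asic1 over Piezo2 held in 5 of 6 libraries, that of Piezo2 over Tmem63c and of Tmem63c over Tmem150c in 4 of 6 each, and that of Tmem63a over Piezo1 in 3 of 6, so neighbours from Asic1 down to Tmem150c, and Tmem63a with Piezo1, were not ordered beyond their spread.

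**Figure D2:**
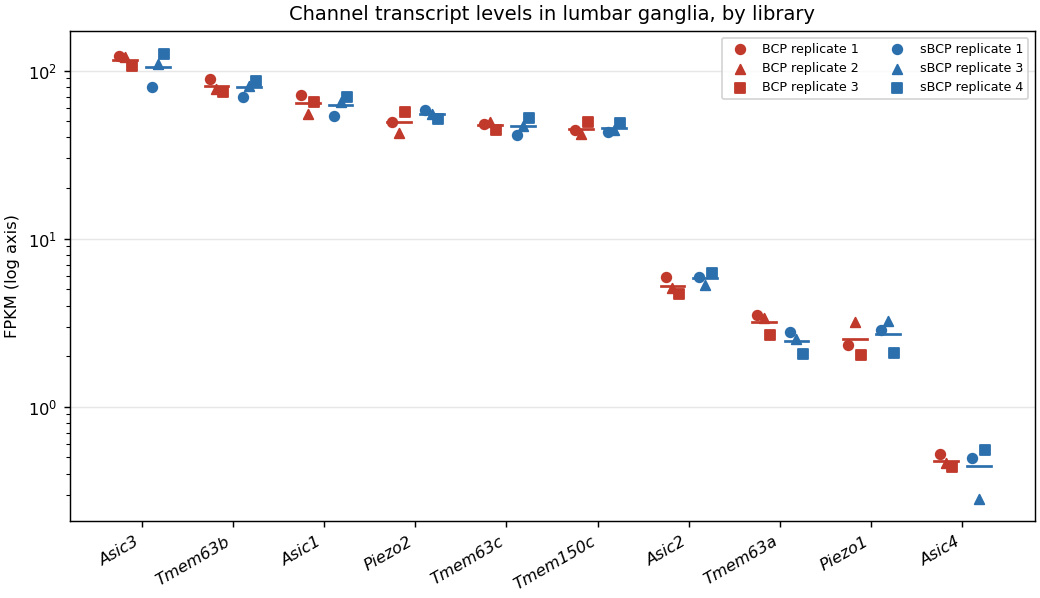
FPKM of the 10 genes in each library on a log axis, ordered by mean, with BCP in red and sBCP in blue (3 libraries each) and a short line at each group's mean. Values run from 0.283 FPKM for Asic4 in sBCP replicate 3 to 126 FPKM for Asic3 in sBCP replicate 4, and the groups overlap for every gene shown.

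Among the proton-gated subunits, Asic3, the one most abundant here, had 122, 121 and 106 FPKM in BCP replicates 1, 2 and 3, against 79.8, 109 and 126 FPKM in sBCP replicates 1, 3 and 4. The lowest and the highest value both belonged to sBCP, and sBCP replicate 1 lay below the 5 other libraries. The means were 116 ± 8.77 and 105 ± 23.5 FPKM (SD, n = 3 each), with a difference of 0.17 on the log2 scale, a standard error of 0.16 and a 95% interval from -0.22 to 0.55 (limma adjusted p = 1.00). Without sBCP replicate 1 the difference was -0.02, and without sBCP replicate 4 it was 0.31. In sBCP replicate 1 the mean of the pan-neuronal marker list was also at its lowest (-0.12 on the log2 scale relative to the 6-library mean). Its genes Uchl1, Tubb3, Prph, Stmn2, Snap25 and Isl1 were at their lowest there. Elavl4 (34.9 FPKM), Pou4f1 (26.7) and Syt1 (54.4) were not, and Rbfox3 was level with BCP replicate 2 (54.5 FPKM in both). The markers of myelinating Schwann cells (0.37), fibroblasts (0.46) and skeletal muscle (2.92) were at their highest there. The list of touch and position neurons had its highest mean there (0.07) but its lowest summed FPKM (3076). Its member Etv1 was at 12.4 FPKM there, against 5.06 to 6.26 in the libraries other than BCP replicate 2 (14.0). Ntrk3 (8.33 FPKM) was at its highest there, and Nefh (2186) and Runx3 (2.90) at their lowest. Markers of pain-sensing neurons were at -0.09 there, and lowest in BCP replicate 2 (-0.13). The part of these shifts in the Asic3 value was not tested. With each library set relative to its mean over the pan-neuronal genes, the Asic3 difference was 0.15. In bulk ganglia, fewer cells of a type and less RNA per cell cannot be told apart.

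Asic1, whose products include the calcium-permeable subunit ASIC1a and the sensory subunit ASIC1b, had BCP values of 71.7, 55.2 and 64.7 FPKM and sBCP values of 53.8, 64.9 and 69.5 FPKM. The groups covered nearly the same range, with the lowest value again in sBCP replicate 1. The difference was 0.03 with a 95% interval from -0.28 to 0.33 (limma adjusted p = 1.00), and -0.08 without sBCP replicate 1. The table sums 3 transcripts for Asic1, so its forms are not separated here.

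Asic4, which does not make a proton-gated channel by itself, had BCP values of 0.525, 0.466 and 0.438 FPKM and sBCP values of 0.495, 0.283 and 0.554 FPKM, under 1 FPKM in each library. With no filter on low values its difference was 0.04, with a limma unadjusted p of 0.712 (adjusted p = 1.00).

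Asic2, a subunit that joins ASIC1 and ASIC3 and changes their response to protons, had BCP values of 5.90, 5.11 and 4.66 FPKM and sBCP values of 5.89, 5.28 and 6.25 FPKM. The lowest library was BCP replicate 3 and the highest sBCP replicate 4. The difference was -0.13 with a 95% interval from -0.41 to 0.15 (limma adjusted p = 1.00), and it was -0.07 without BCP replicate 3, -0.08 without sBCP replicate 4 and -0.21 without BCP replicate 1. The gene makes a pair of forms, ASIC2a and ASIC2b, which begin with different exons, and ASIC2b gives no proton current when alone. The deposited table holds 1 Asic2 transcript on chromosome 10, minus strand, from 68248655 to 68517564, an interval of 268910 bases (the genome build is not given in the sources used here). RefSeq places 2 Asic2 starts in GRCr8, 802176 bases apart, which is wider than the deposited interval. As far as both annotations describe the same locus, the deposited Asic2 transcript therefore includes 1 of these starts at most. How reads of the other form were counted is not given, so the Asic2 value cannot be assigned to 1 form or to both. The windows of 250 bases before each of these starts are shown because they mark the separate starts, together with that of Asic3 as the most abundant of the 10 genes. All are 5′ to 3′ on the gene's own strand, from RefSeq (GRCr8), with each CG dinucleotide in capitals.

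Asic2 upstream start, chr10:67438238-67438487, minus strand: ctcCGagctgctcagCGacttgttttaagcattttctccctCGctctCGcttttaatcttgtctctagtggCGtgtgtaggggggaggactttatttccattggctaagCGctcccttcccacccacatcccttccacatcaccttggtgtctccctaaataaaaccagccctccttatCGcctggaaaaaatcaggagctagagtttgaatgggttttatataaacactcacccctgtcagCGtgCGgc

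Asic2 downstream start, chr10:66636062-66636311, minus strand: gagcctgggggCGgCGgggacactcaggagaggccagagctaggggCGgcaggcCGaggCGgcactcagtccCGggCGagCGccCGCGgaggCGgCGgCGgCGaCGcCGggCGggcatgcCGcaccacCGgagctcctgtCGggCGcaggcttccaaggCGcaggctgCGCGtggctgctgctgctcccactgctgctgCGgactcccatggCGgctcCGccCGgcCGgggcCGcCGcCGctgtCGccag

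Asic3, chr4:11657368-11657617, minus strand: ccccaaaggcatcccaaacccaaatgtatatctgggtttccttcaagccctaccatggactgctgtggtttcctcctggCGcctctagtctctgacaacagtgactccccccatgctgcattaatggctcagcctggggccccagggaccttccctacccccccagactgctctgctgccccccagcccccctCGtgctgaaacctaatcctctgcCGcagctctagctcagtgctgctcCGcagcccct

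CG reads the same on both strands, and 92.2% of 33469 such RefSeq windows held at least 1, with a median of 5. The upstream Asic2 window held 9 and the downstream window 33, a number that 3.60% of all windows reached. The Asic3 window held 4, a number that 62.6% reached. Of the 10 genes, 7 matched the table, with 8 windows. Tmem150c had 31 CG, Asic1 22, Tmem63a 20, Piezo2 19 and Tmem63c 5, so a high and a low count were both found among genes of the high tier. Tmem63b, Piezo1 and Asic4 had no match.

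Asic3 held the largest share of the ASIC family in each of the 6 libraries. It made up 60.9%, 66.5% and 60.3% of the summed Asic1 to Asic4 FPKM in BCP and 57.0%, 60.7% and 62.3% in sBCP. BCP replicate 2 had the highest share and sBCP replicate 1 the lowest, and the groups overlapped. The means were 62.6% ± 3.42 and 60.0% ± 2.73 (SD, n = 3 each), with a two-sided exact permutation p of 0.50 (1.00 adjusted over 3 ratios, for which 3 libraries against 3 allow no p below 0.10). The difference of 2.55 percentage points was 0.581 without BCP replicate 2, 1.05 without sBCP replicate 1 and 0.202 between medians. Asic1 followed with 30.4% to 38.4%, Asic2 with 2.65% to 4.21% and Asic4 with 0.158% to 0.354%.

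**Figure D3:**
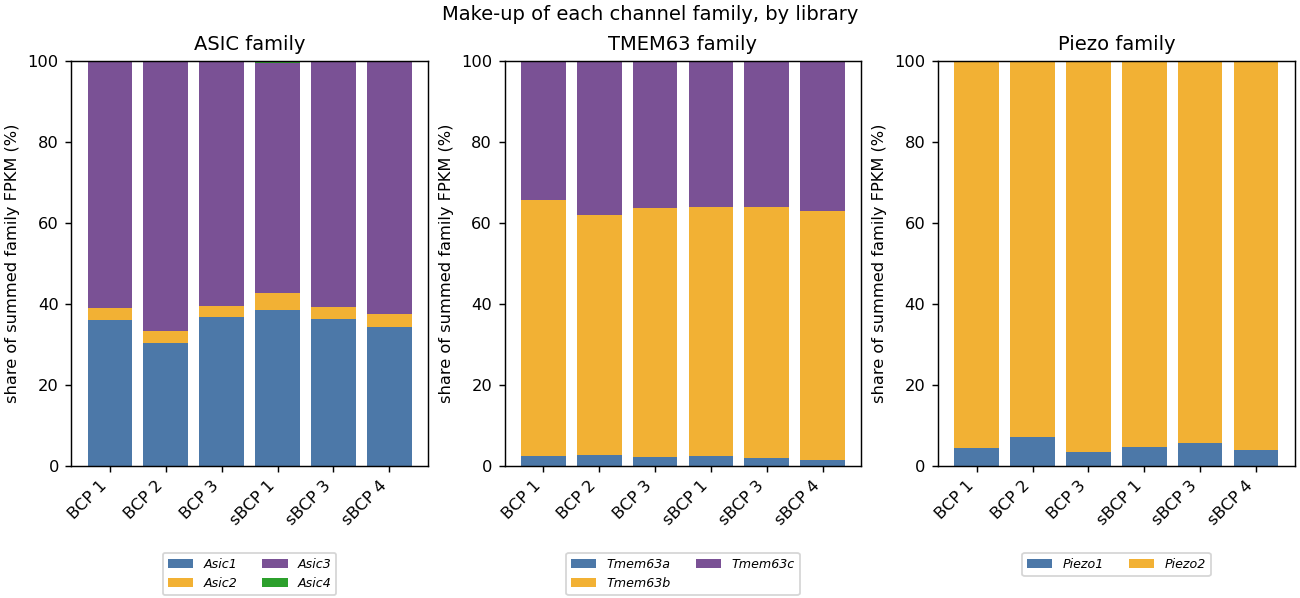
Share of each member in the summed FPKM of its family (percent, stacked bars) in the 3 BCP and 3 sBCP libraries, for the ASIC, TMEM63 and Piezo families. Asic3 holds 57.0% to 66.5%, Tmem63b 59.4% to 63.3% and Piezo2 93.0% to 96.5% of its family, and Asic4 is at most 0.354%.

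Piezo2, the touch and position channel of sensory neurons, had BCP values of 49.6, 42.7 and 56.4 FPKM and sBCP values of 58.7, 54.9 and 51.4 FPKM. BCP replicate 2 was the lowest and sBCP replicate 1 the highest, and BCP replicate 3 lay inside the sBCP range. The means were 49.6 ± 6.83 and 55.0 ± 3.66 FPKM (SD, n = 3 each), with a difference of -0.15, a standard error of 0.11 and a 95% interval from -0.41 to 0.11 (limma adjusted p = 1.00). The difference was -0.05 without BCP replicate 2 and -0.25 without BCP replicate 3 (adjusted p = 0.992, unadjusted p = 0.0493, limma). Markers of touch and position neurons had 5 of 8 tested genes above 0 and 3 below, and summed to 3277 to 3929 FPKM in BCP and 3076 to 3754 in sBCP. The order of libraries depended on the measure: sBCP replicate 1, where Piezo2 was highest, had the lowest sum, most of which is Nefh, and the highest mean log2 value of the list (0.07 relative to the 6-library mean). Of these, Ntrk2, a receptor of touch neurons, had BCP values of 38.0, 32.6 and 40.0 FPKM and sBCP values of 36.8, 37.2 and 33.7 FPKM.

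Piezo1 had BCP values of 2.34, 3.21 and 2.03 FPKM and sBCP values of 2.87, 3.22 and 2.09 FPKM. The highest values, in BCP replicate 2 and sBCP replicate 3, and the lowest, in BCP replicate 3 and sBCP replicate 4, were spread over both groups. The difference was -0.08 with a 95% interval from -0.51 to 0.35, the widest of the 9 (limma adjusted p = 1.00). Piezo1 overlaps Ctu2 on the opposite strand, at up to 6.84 FPKM, and whether counting used strand is not given in the sources used here, so reads of the genes may have been shared. BCP replicate 2 and sBCP replicate 3 were also the libraries with the most macrophage RNA, with summed markers of 126 and 54.5 FPKM, and BCP replicate 3 and sBCP replicate 4 those with the least (23.3 and 34.1). The endothelial markers measured (5 of 6 listed, with Cldn5 listed at 0 in each library) were likewise lowest in BCP replicate 3 and sBCP replicate 4, at 18.4 and 17.1 FPKM, against 21.5 to 24.4 in the other 4 libraries. Fibroblast markers summed to 418 FPKM in BCP replicate 2, 398 in sBCP replicate 3 and 446 in sBCP replicate 1. In the other libraries they summed to 237 to 303 FPKM, lowest in BCP replicate 3. The part of macrophage, endothelial and fibroblast RNA in the Piezo1 value was not tested.

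Piezo2 exceeded Piezo1 by 13.3 to 27.8 times. The ratio was 21.2, 13.3 and 27.8 in BCP and 20.5, 17.0 and 24.6 in sBCP, with both extremes in BCP. On the log2 scale the means were 4.31 ± 0.54 and 4.35 ± 0.26 (SD, n = 3 each), a difference of -0.04 (two-sided exact permutation p = 1.00).

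Of the TMEM63 genes, Tmem63a had the lowest unadjusted p of the 9. It had BCP values of 3.52, 3.38 and 2.69 FPKM and sBCP values of 2.78, 2.54 and 2.06 FPKM. BCP replicates 1 and 2 lay above all sBCP libraries, while BCP replicate 3 lay between sBCP replicates 1 and 3. The means were 3.19 ± 0.444 and 2.46 ± 0.369 FPKM (SD, n = 3 each), with a difference of 0.28, a standard error of 0.14 and a 95% interval from -0.06 to 0.61 (limma adjusted p = 1.00, unadjusted p = 0.0921). The difference stayed between 0.16 and 0.37 in 15 alternative settings, with an unadjusted p of at least 0.0524 and an adjusted p of at least 0.867. The table sums 2 transcripts of this gene.

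Tmem63b had BCP values of 89.3, 77.4 and 75.0 FPKM and sBCP values of 69.8, 81.1 and 87.1 FPKM. Tmem63c had BCP values of 48.3, 49.6 and 44.5 FPKM and sBCP values of 41.1, 47.1 and 52.3 FPKM. For both genes sBCP replicate 1 was the lowest library, as it was for Asic1 and Asic3. Their differences were 0.02 each, with 95% intervals from -0.23 to 0.28 for Tmem63b and from -0.21 to 0.26 for Tmem63c, and both were -0.06 without sBCP replicate 1. Tmem63b made up 61.4% ± 1.93 of the TMEM63 sum among BCP libraries and 61.7% ± 0.349 among sBCP libraries (SD, n = 3 each, two-sided exact permutation p = 0.80).

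Tmem150c varied least, with a ratio of 1.18 between its highest and lowest library. It had BCP values of 44.3, 41.8 and 49.3 FPKM and sBCP values of 43.1, 44.4 and 48.6 FPKM, and the sBCP values lay inside the BCP range. The difference was -0.01 with a 95% interval from -0.21 to 0.19 (limma adjusted p = 1.00).

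**Figure D4:**
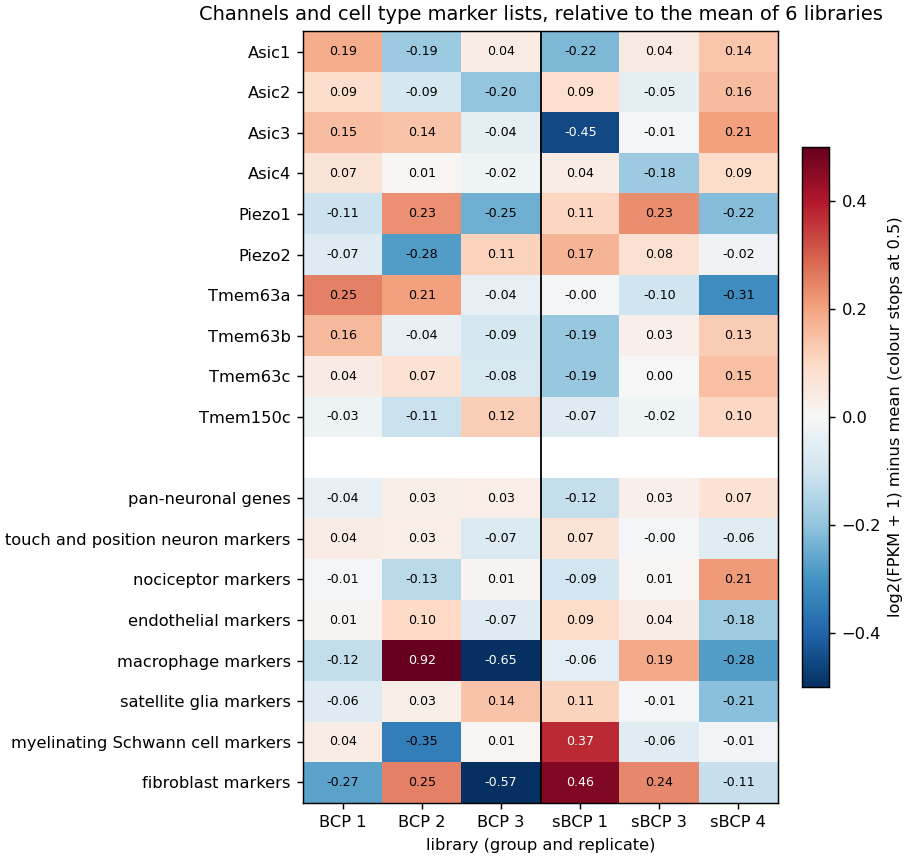
Each channel's log2(FPKM + 1) relative to its mean over 6 libraries, and below it the mean of the same quantity over each cell type marker list, by library (BCP left of the line, sBCP right). Asic1, Asic3, Tmem63b and Tmem63c are lowest in sBCP replicate 1, where Schwann cell (0.37) and fibroblast (0.46) markers are highest.

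Across libraries 4 of the 10 genes had their lowest value in sBCP replicate 1 and 4 their highest in sBCP replicate 4, so that the widest contrast for Asic3 and Tmem63c lay within the sham group. Asic4, under the filter, likewise had both extremes in the sham group, in sBCP replicates 3 and 4. Of the genes whose values over the 6 libraries followed Asic3 most closely, Mpped2, Cpne6 and Bcat1 led, with Pearson correlations of 0.997, 0.992 and 0.992. For Piezo2 they were Klhl36, Cfap126 and Gfod1, at 0.996, 0.990 and 0.986. These points share 6 libraries only, and 171 and 82 named genes reached 0.95 with Asic3 and Piezo2, so the figures are a description.

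Other proton sensors did not pass the test. Of 10 listed names, 9 were in the table and 5 passed the filter, of which 3 were above 0 and 2 below with a median difference of 0.02. Gpr4, a proton-sensing receptor of vessel cells, had BCP values of 1.83, 3.18 and 1.70 FPKM and sBCP values of 1.55, 1.34 and 1.74 FPKM, a difference of 0.32 (95% interval from -0.14 to 0.78, limma adjusted p = 1.00). BCP replicate 2 stood above the rest, and without it the difference was 0.12. Otop1, a proton channel, was at 0.715, 0.595 and 1.47 against 1.65, 1.20 and 0.998 FPKM, and Trpv1, the heat-gated channel that protons also open, at 37.1 ± 3.86 against 39.7 ± 2.17 FPKM (SD, n = 3 each). The receptors Gpr65 and Gpr132 and the acid-inhibited potassium channel Kcnk9 were below the filter.

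Other mechanosensitive candidates had 10 of 14 members tested, 5 above 0 and 5 below, with a median difference of -0.04 and 0 called. Kcnk10, a stretch-responsive potassium channel, had BCP values of 2.79, 2.94 and 3.20 FPKM and sBCP values of 2.56, 2.72 and 2.15 FPKM, so its groups did not overlap, and the difference of 0.20 had a 95% interval from -0.09 to 0.49 (limma adjusted p = 1.00). Over all tested features 5.4% had groups that do not overlap, so 1 such gene among 10 is near that share. Pkd2, a cation channel of cilia, was at 4.06 ± 0.342 against 4.64 ± 1.03 FPKM, and Lrrc8a, the core subunit of the volume-regulated anion channel, at 29.8 ± 2.13 against 32.5 ± 4.59 FPKM (SD, n = 3 each). Below the filter, and singled out after its values were seen, Tmc2, a channel of hair cells, had BCP values of 0.526, 0.691 and 0.548 FPKM and sBCP values of 0.296, 0.203 and 0.112 FPKM. The groups did not overlap, and with no filter the difference was 0.40 with a limma unadjusted p of 0.00277 (adjusted p = 0.733). In that setting 593 of 22238 features had a limma unadjusted p under 0.05.

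The list of candidate channel partners had 12 names, for 11 genes found in the data. Of these, 8 were tested, 4 above 0 and 4 below, with a median difference of -0.01 and 0 called. Slc9a3r1, a scaffold protein that binds ASIC3, was at 78.1 ± 1.97 against 73.4 ± 4.37 FPKM, a difference of 0.09 (95% interval from -0.07 to 0.25, limma adjusted p = 1.00). Stoml2 was at 38.6 ± 1.51 against 40.5 ± 2.22 FPKM, and Pick1, a scaffold protein that binds ASIC1 and ASIC2, at 18.7 ± 1.56 against 17.9 ± 2.69 FPKM (SD, n = 3 each). Stoml3, which sensitizes Piezo channels in touch neurons of the mouse, was at 0.272 to 0.693 FPKM, below the filter. With no filter its difference was -0.03, with a limma unadjusted p of 0.848 (adjusted p = 1.00). The epithelial sodium channel subunits Scnn1a, Scnn1b and Scnn1g, relatives of the ASICs, were below 1 FPKM in each library.

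**Figure D5:**
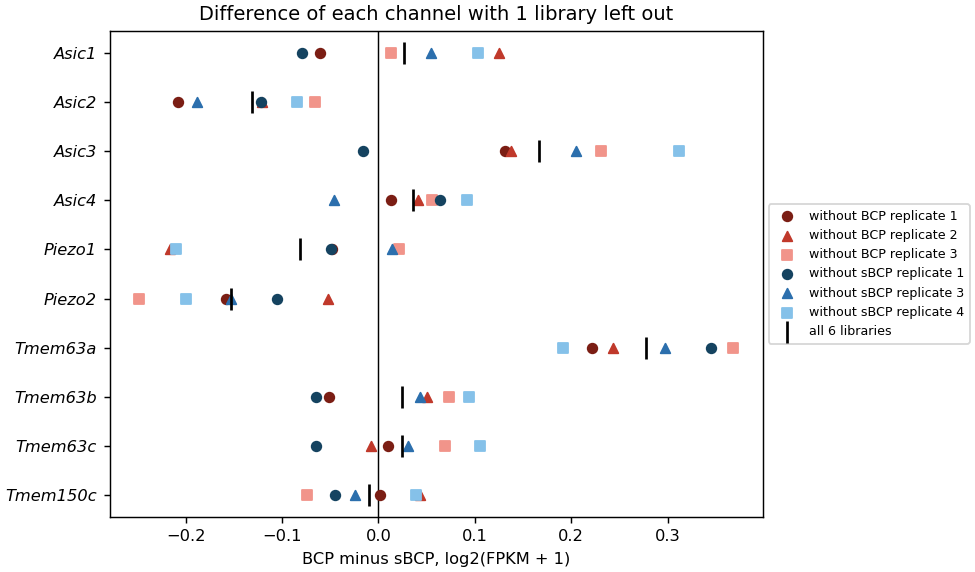
BCP minus sBCP difference of each channel on the log2(FPKM + 1) scale with all 6 libraries (black line) and with 1 library left out (coloured points). Asic2, Piezo2 and Tmem63a keep their sign in the 6 cases, and Asic3 runs from -0.02 without sBCP replicate 1 to 0.31 without sBCP replicate 4.

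The authors' deposited table marks 0 of the 10 genes as significant. In the authors' deposited table their p-values run from 0.171 for Tmem63a to 0.983 for Tmem150c, and each q-value is 1.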

How the data were processed

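The labels group the libraries as 3 BCP and 3 sBCP, with replicate numbers from the titles (1, 2 and 3, and 1, 3 and 4). From 5 µg of RNA with a RIN above 7, poly(A) RNA was taken on beads and read from both ends of inserts near 300 bp, per the labels' protocols. Aligner, counting tool, build and strand use are not given in the sources used here. Values deposited are FPKM for each Ensembl rat gene and library, per the file headers. The authors also deposited a log2 fold change with its p-value and q-value, and their test is not named in the labels or headers.

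Genes reaching 1 FPKM in 3 or more libraries were tested with limma 3.58.1 (R 4.3.3) on log2(FPKM + 1), with empirical Bayes, a variance trend, no covariate and Benjamini-Hochberg adjustment at 0.05, and the code was checked on simulated data. The added 1 shrinks differences of low genes. Ratios were compared by exact permutation with scipy 1.17.1. Relative depth was read from single-transcript features under 0.5 FPKM. No libraries held identical values. FPKM are not counts, and no count test was used. The members and lists were chosen with earlier results of these data known. Genes named are the 10 members, the 3 tested genes with the lowest unadjusted p of each pathway list, Trpv1, Stoml3, the 3 genes most like Asic3 and Piezo2, and the leading cell markers. Outside this rule, pathway genes below the filter, Ctu2, Cldn5, Pi16, Nefh, Etv1, Runx3 and Tmc2 were named after their values were seen. So were the pan-neuronal genes other than Uchl1 and Rbfox3. Asic5 and Pecam1, both listed, were not analysed here, and Pacc1 and Nherf1 were read under the names Tmem206 and Slc9a3r1. A listed gene is not reported here. The alternatives tried were pseudocounts of 0.1 and 0.5, no filter, 3 other scalings (median ratio, quantile and relative to pan-neuronal genes), variance models, the replicate block and leaving out each library.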

Additional observations from a re-analysis of the deposited data

How the results depend on the processing

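In each of the 15 alternatives 0 channels were called, of 9 tested or, with no filter, 10, with adjusted limma p-values of at least 0.867. Only Piezo2 without BCP replicate 3 reached an unadjusted p under 0.05 (0.0493). Leaving out 1 library gave differences from -0.0789 to 0.125 for Asic1, -0.0162 to 0.312 for Asic3, -0.0464 to 0.0915 for Asic4, -0.217 to 0.0209 for Piezo1, -0.0646 to 0.0937 for Tmem63b, -0.0644 to 0.105 for Tmem63c, -0.0739 to 0.0429 for Tmem150c, -0.0557 to 0.135 for Pick1 and -0.135 to 0.0711 for Stoml3, on both sides of 0. Tmem150c was at 0.0080 with median-ratio rescaling. Asic2, Piezo2 and Tmem63a kept their sign in the 15 settings, at -0.208 to -0.0659, -0.248 to -0.0520 and 0.191 to 0.368 without 1 library. The Piezo2 to Piezo1 log2 ratio differed by -0.28 to 0.25 without 1 library and by 0.054 between medians, the Asic3 share by 0.581 to 3.71 percentage points (0.202 between medians, 1.75 with the replicate block), and the Tmem63b share by -1.27 to 0.66 percentage points.

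The numbers 1 and 3 are shared by the groups, and the deviations from group means of these pairs correlated by 0.06 and -0.10. Pairs of unlike number correlated by -0.22 to 0.23. With 3 libraries per group these correlations cannot show whether a shared number marks a pairing. With the replicate block, limma called 10 genes higher and 28 lower and none of the 10 channels (0). BCP replicate 2 and sBCP replicate 4 share no number, so the block differences come from replicates 1 and 3 of each group only. The block gave differences of 0.092 for Tmem150c, 0.024 for Trpv1 and 0.10 for Stoml3, 0.38 for the Piezo log2 ratio and 0.62 percentage points for the Tmem63b share. With it Piezo1 was at -0.35, Asic1 at 0.20 and Asic3 at 0.28, against -0.08, 0.03 and 0.17 in the main fit. Piezo1 and Asic1, among others, then lay outside their ranges without 1 library. Over all features, 2 genes were called higher and 23 lower, 1 higher with no filter, and 0 to 7 higher and 13 to 24 lower without 1 library. Higher genes were 0 without BCP replicate 1 (with 254 at an unadjusted p under 0.05), 1 without BCP replicate 3 or sBCP replicate 3 and 7 without sBCP replicate 4, and lower genes 13 and 14 without BCP replicate 3 and sBCP replicate 3. The cause was not tested. Since FPKM keeps no counts, no counting interval could be given for any gene.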
